A study of Mus musculus with 21 samples.

Results

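The regions described here are stretches of chromatin that lay inside H3K36me3 peaks of Setd2 knockout (KO) line 1 at day 5, in both media, and in none of its earlier control peaks. They were chosen from the peak lists of that line on chromosomes 1 to 19: every base inside a peak of both day 5 lists, in control medium and under methionine restriction, and in no peak of day 0 or of day 1 in control medium. Runs of at least 1 kb were kept. This gave 3051 intervals (5.38 Mb) among 4852 runs of that length inside both day 5 lists (8.91 Mb). Of the other runs, 1202 lay in both earlier lists and 599 in 1 of them. The intervals were split by the wild-type (WT) cells of day 5 in control medium: 2261 intervals (3.95 Mb) had at least 50% of their bases inside the peaks of both WT lists and are called covered in WT, and 790 (1.43 Mb) did not and are called not covered.

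H3K36me3, the trimethylated lysine 36 of histone H3, is deposited along the bodies of transcribed genes by SETD2, which travels with the elongating RNA polymerase. The mark therefore usually outlines genes in active use, and it tends to be stronger toward their 3′ ends. Methyl groups for it come from S-adenosylmethionine, which cells make from methionine. C2C12 is a mouse myoblast line that leaves the cell cycle and fuses into myotubes in culture, and genes of the contractile apparatus are switched on during that change.

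All cells were C2C12. WT cells had 2 replicate libraries each from day 0, from day 1 and day 5 in control medium, and from day 1 and day 5 under methionine restriction. The labels name 2 Setd2 KO lines, each with 1 library in each of these 5 conditions, so a KO value has no replicate and no test was made on it. How the KO lines were derived, and whether each is a clone, is not given in the sources used here, and the peak names inside the files call the lines replicates 1 and 2 of a KO group. Each library was deposited as a list of broad peaks. The values below are the percent of bases inside called peaks, which measures where peaks were called and not how strong the mark was. Read depth is unknown for all 20 libraries, and nothing says whether WT replicates came from separate cultures, so p-values measure only the spread between these libraries.

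The KO line 1 lists themselves differed widely in size, and this bears on every value below. On chromosomes 1 to 19 they spanned 17.5 Mb on day 0, 13.7 Mb (control) and 0.30 Mb (restricted) on day 1, and 73.2 Mb (control) and 45.4 Mb (restricted) on day 5. WT lists spanned 108.3 to 181.0 Mb and KO line 2 lists 0.01 to 7.06 Mb. Whether list size followed read depth was not tested. The body of Setd2 itself (GRCm38.p6, chr9:110532500-110618633) was covered to 24.0% in the day 5 control library of KO line 1, to 2.67% in the restricted day 5 library and to 0% in the 5 libraries of KO line 2. The WT control libraries of day 5 had 82.8% and 78.4%. Setd2 held none of the intervals, and these values describe the mark on the gene, not the protein. Marker genes of fat, bone and cartilage, endothelial, immune, nerve and liver cells were at or near 0 in every library. The highest was the nerve marker Syt1, which hosts not covered intervals, at 3.51% and 7.37% of its body in the day 5 libraries of KO line 1, and no member of the other 5 lists passed 3.89%. Of 12 myoblast and myotube markers, 8 had peaks in each of these 2 libraries.

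Hosts of the covered intervals included genes known from the response to low oxygen, and hosts of the not covered intervals included interferon-response genes. The upstream sequences of some of them are shown because a short motif is known for each of these responses. An interferon-stimulated response element carries a repeated GAAA, searched here as GAAA, 2 bases of any kind and GAAA again, and a hypoxia-response element carries ACGTG. The 100 bases before a start site of the RefSeq promoter table on GRCm38.p6 are given in the direction of transcription, with each match to the letters, on either strand, in capitals. The genes are the leading hosts of their kind that had a match in these bases and most of their body inside peaks of both day 5 libraries of KO line 1. A gene can have several start sites: those used for P4ha1 and Ifi203 lie inside the outer bounds of the gene, so that nearly all or all of the printed bases are within it, and the Ifi207 and Gbp3 stretches overlap their genes in part. The first 4 are hosts of intervals not covered in WT.
Ifi203, chr1:173942493-173942592, minus strand: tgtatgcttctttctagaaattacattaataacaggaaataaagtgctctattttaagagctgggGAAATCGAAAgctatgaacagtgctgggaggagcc
Ifi207, chr1:173741810-173741909, minus strand: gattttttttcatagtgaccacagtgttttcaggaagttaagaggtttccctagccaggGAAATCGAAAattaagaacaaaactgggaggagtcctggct
Gbp7, chr3:142530236-142530335, plus strand: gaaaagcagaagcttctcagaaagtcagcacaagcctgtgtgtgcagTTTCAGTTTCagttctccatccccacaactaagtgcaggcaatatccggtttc
Gbp3, chr3:142559944-142560043, plus strand: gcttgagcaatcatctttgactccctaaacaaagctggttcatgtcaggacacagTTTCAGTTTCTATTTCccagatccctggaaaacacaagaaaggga

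The next 4 are hosts of covered intervals from the hypoxia-response genes, with ACGTG or its complement in capitals.
P4ha1, chr10:59323196-59323295, plus strand: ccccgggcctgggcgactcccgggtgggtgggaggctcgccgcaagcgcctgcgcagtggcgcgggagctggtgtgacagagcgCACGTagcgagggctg
P4ha2, chr11:54100824-54100923, plus strand: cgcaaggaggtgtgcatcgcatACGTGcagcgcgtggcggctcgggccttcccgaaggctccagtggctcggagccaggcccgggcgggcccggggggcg
Hk2, chr6:82774455-82774554, minus strand: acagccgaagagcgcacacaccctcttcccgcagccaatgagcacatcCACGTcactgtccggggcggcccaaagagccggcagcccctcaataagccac
Ero1a, chr14:45318573-45318672, minus strand: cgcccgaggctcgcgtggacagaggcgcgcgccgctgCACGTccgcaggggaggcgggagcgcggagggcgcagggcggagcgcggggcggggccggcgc

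Matches were counted over the 250 bases before each listed start site, with only start sites on chromosome 18 left out. The spaced GAAA repeat on either strand was present in 9.83% of the 234 host genes of not covered intervals that the sequence table then holds. It was present in 2.78% of 790 host genes of covered intervals and in 3.46% of all 27025 genes left in the table. ACGTG on either strand was present in 16.7%, 29.6% and 18.5% of the same sets. The upstream sequences of the covered hosts were richer in G and C, at a mean of 62.0%, than those of the not covered hosts (56.0%) or of all genes (53.2%), and this moves the chance of either motif. Such a match is a description of the letters and not a binding site. Ifi203 and Ifi207 are members of a gene family with closely related copies, so reads may have been shared between them.

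The WT cells, none of which entered the choice of the 3051 intervals, had peaks over most of their bases already at day 0. The share of these bases inside peaks was 67.5% and 64.5% in the 2 libraries of WT day 0. The WT control libraries of day 1 had 62.6% and 65.1%, and the restricted ones 42.0% and 36.1%. For day 5 the control libraries had 75.9% and 73.3% and the restricted ones 47.4% and 48.6%. The restricted libraries of both days lay below every WT control library. KO line 2 had 0% to 1.82% of these bases inside peaks in its 5 libraries, and KO line 1 at day 1 under restriction, a library the rule did not use, had 0.04%.

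The 2261 covered intervals were also in peaks of WT cells before differentiation. In the WT libraries of day 0, 85.8% and 81.9% of their bases lay inside peaks, and in the control libraries of day 1 82.1% and 85.1%. The restricted libraries had 55.3% and 48.0% on day 1 and 62.3% and 63.8% on day 5. In WT at day 0, 1920 of them (84.9%) were at least 50% covered in both libraries, and 85 had no base in a peak of either. Among the covered intervals 311 lay wholly inside peaks of all 10 WT libraries. In KO line 2, none of its 5 libraries reached more than 0.25% of these bases.

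The 790 intervals not covered in WT at day 5 were mostly outside WT peaks at the other times too. The share of their bases in peaks averaged 16.9% ± 0.42 (SD, n = 2) over the WT libraries of day 0 and 9.23% ± 0.81 (SD, n = 2) over the control libraries of day 1. Restricted WT libraries averaged 4.32% ± 1.66 (SD, n = 2) on day 1 and 6.26% ± 0.31 (SD, n = 2) on day 5. Of these intervals 434 had no base in any of the 10 WT lists. Another 100 (12.7%) were at least 50% covered in both libraries of WT day 0. KO line 2 had 6.15% (control) and 5.87% (restricted) of these bases in peaks on day 5, 1.19% on day 0 and 1.94% on day 1 in control medium.

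**Figure D1:**
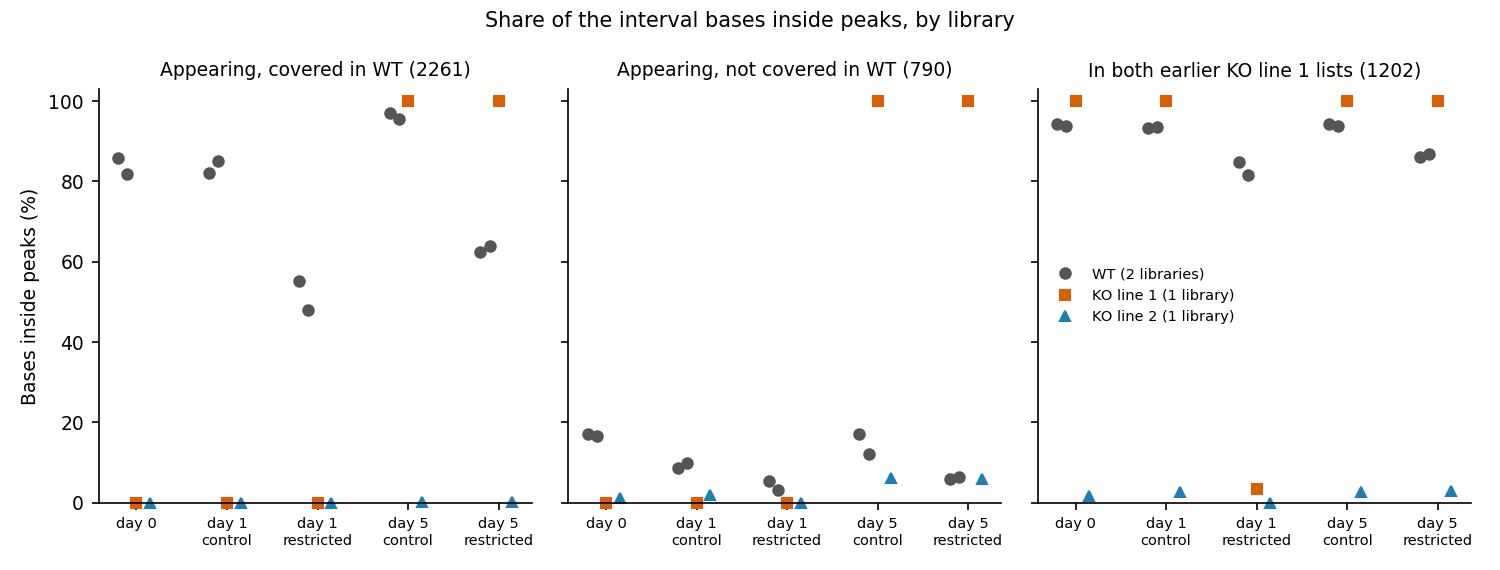
Percent of interval bases inside peaks (vertical axis, 0 to 100) in each of the 20 libraries, by condition (horizontal axis), for the covered intervals, the not covered intervals and, for comparison, the 1202 runs also in both earlier KO line 1 lists. Each point is 1 library. The values of KO line 1 at 0% and 100% at day 0, day 1 control and day 5 are set by the choice of the intervals, except at day 1 under restriction. The WT points of day 5 in control medium defined the split into covered and not covered, so their separation is set too. In the other conditions the WT points lie between 48.0% and 85.8% for the covered set and between 3.15% and 17.2% for the not covered set.

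Both kinds had nearly the same lengths but different surroundings. The median length was 1367 bases for covered and 1336 bases for not covered intervals, and the longest covered one was 17241 bases. A host gene, one that holds at least 50% of the interval, was found for 98.0% of the covered and 72.3% of the not covered intervals. The hosts numbered 983 genes for covered and 322 for not covered intervals, 1206 in all, and 99 genes hosted both kinds. Among the covered intervals 49.1% directly adjoined a peak of day 0 or day 1 of the same line, so that they extend a stretch that was already marked, and 15.1% lay over 10 kb from any. Among the not covered intervals 27.0% adjoined such a peak and 32.2% lay over 10 kb away. The authors' fold enrichment of the day 5 control peaks that hold the intervals had a median of 3.52, counted per interval. It was 3.65 for covered and 3.16 for not covered intervals, against 3.10 over all peaks of at least 1 kb in that list. For the restricted day 5 peaks the medians were 3.30 and 3.35, against 3.20.

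Within host genes the covered intervals sat nearer to the 3′ end than the not covered ones. Strand was known for 946 of the host genes. Measured from the start of transcription, the median interval midpoint was at 57.6% of the gene for 1743 covered intervals and at 44.8% for 388 not covered ones. The runs already present in both earlier lists lay still nearer to the 3′ end, with a median of 68.0% over 906 runs. Intervals with a midpoint in the 5′-most 25% of the gene made up 17.5%, 33.2% and 6.95% of the 3 sets. These are descriptions of 1 line, and intervals of the same gene are not independent.

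**Figure D2:**
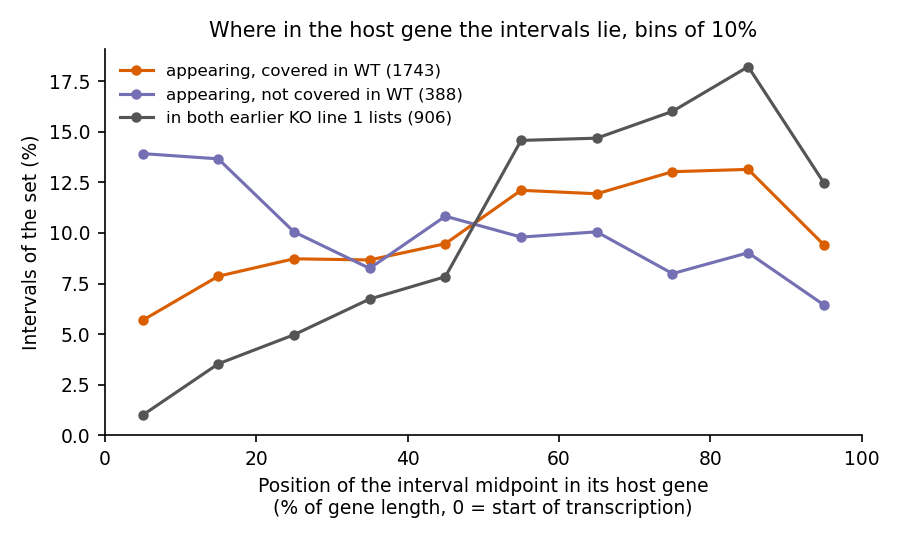
Position of the midpoint of each interval in its host gene (horizontal axis, percent of gene length from the start of transcription, bins of 10%) against the percent of intervals of the set (vertical axis). Lines join the bins of 1743 covered, 388 not covered and 906 earlier intervals. The not covered set is highest in the first bins and the earlier set between 80% and 90%.

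The not covered intervals were spread unevenly. They made up 37.8% of the 299 intervals on chromosome 1, 38.9% of 221 on chromosome 15 and 41.2% of 114 on chromosome 13, against 10.2% of 236 on chromosome 2 and 9.09% of 132 on chromosome 7. Chromosome 1 alone held 17.7% of their bases (252.6 kb). The HIN-200 gene cluster lies there, and its leading hosts Ifi203 and Ifi207 held 16695 and 16415 of these bases. The reason for the uneven spread was not tested. The 219 not covered intervals outside genes differed from those in genes. In the day 5 libraries of KO line 2, 18.4% (control) and 18.95% (restricted) of their bases were inside peaks, and 2.82% and 2.31% of those of the 571 in a gene. WT libraries had at most 3.06% of the bases outside genes in peaks. At least 50% of the bases were inside both KO line 2 lists of day 5 for 24 not covered intervals, 20 of them outside genes, and for 0 covered intervals.

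Genes of the interferon response were among the leading hosts of the not covered intervals. Several hosts had almost no peak in any WT library. Nos2, the inducible nitric oxide synthase, had 93.7% and 95.3% of its body in peaks in KO line 1 at day 5 in control and restricted medium, after 0% in its 3 earlier libraries. WT reached 9.12% and 1.27% in the day 5 control libraries and 0% in the other 8 libraries. Ifi44, an interferon-induced gene, had 96.8% and 97.7% in KO line 1 at day 5, and 0% in all 10 WT libraries and in the 5 of KO line 2. Oasl2, of the oligoadenylate synthetase family that senses double-stranded RNA, had 98.0% and 97.4% in KO line 1 at day 5, 0% in all WT libraries, and at most 1.18% in KO line 2. Its interval covered 14599 bases at chr5:114897846-114912444.

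Il15, a cytokine for natural killer and memory T cells, carried the most bases among the hosts of not covered intervals, 43603 in 17 intervals. Its cover in KO line 1 was 5.51% and 6.11% in the day 0 and day 1 control libraries, then 82.6% and 86.0% on day 5. WT had 0.58% in 1 library of day 5 and 0% in the other 9. Mx2, an antiviral GTPase listed as a transcribed pseudogene in the RefSeq table, held 1 interval of 26532 bases (chr16:97536194-97562725) and its cover was 99.5% and 100% at day 5 in KO line 1. WT reached at most 2.01%. Xdh, the xanthine oxidase of purine breakdown, had 70.4% and 64.0% at day 5 in KO line 1, after 12.03% and 2.06% in the day 0 and day 1 control libraries, and 0% in all WT libraries.

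The family members were not all hosts. The interferon families and the hypoxia-response list were written down after values had been seen, so their counts describe the data and support nothing. Of 18374 protein-coding genes of at least 2 kb, 6.24% held an interval of either kind, 5.28% a covered one and 1.48% a not covered one. In the HIN-200 family, which includes DNA-sensing proteins, 7 of 13 genes held a not covered interval, among them Ifi207, Ifi203, Ifi204, Mndal and Ifi202b. Ifi207 had 96.1% and 91.1% cover in KO line 1 at day 5 and at most 2.41% in WT, while Ifi204 had 65.5% and 59.0% beside 16.8% to 41.5% in WT. Aim2, Ifi205, Ifi206, Ifi209, Ifi213 and Ifi214 held none. The guanylate-binding proteins, GTPases that attack pathogen vacuoles, had 3 of 10 as hosts (Gbp3, Gbp5 and Gbp7). Gbp7 had 78.9% and 72.5% in KO line 1 at day 5 and 0% in every other library.

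In the Ifit family, whose proteins bind foreign RNA, Ifit2 and Ifit1bl1 of 6 genes held an interval. The 10634 bases assigned to Ifit1bl1 (chr19:34641728-34652361) also lie over Ifit1, whose body was at 90.8% and 90.9% in KO line 1 at day 5 and at 0% in the other 18 libraries. Ifit3 was at 0% in all 20 libraries. Of 11 Oas genes Oasl2 alone held an interval, and of 6 immunity-related GTPases Irgm1 alone. Irgm1 had 84.2% and 91.1% in KO line 1 at day 5, 0% at its earlier times, and 12.4% to 37.1% in WT.

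Stat2 and Irf9, which act in the interferon-stimulated transcription complex, held covered intervals instead. Stat2 was at 96.0% and 92.4% in KO line 1 at day 5, after 0% and 1.21% in the day 0 and day 1 control libraries, and between 65.1% and 80.1% in the 10 WT libraries. Irf9, the DNA-binding partner, was at 81.0% and 79.8% after 0%, and between 57.1% and 100% in WT. Irf7, which drives interferon production, was at 71.8% and 100% after 0%, and between 9.44% and 44.6% in WT. Irf1 held no interval, and was at 71.1% and 66.3% in the day 0 and day 1 control libraries of KO line 1 already.

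**Figure D3:**
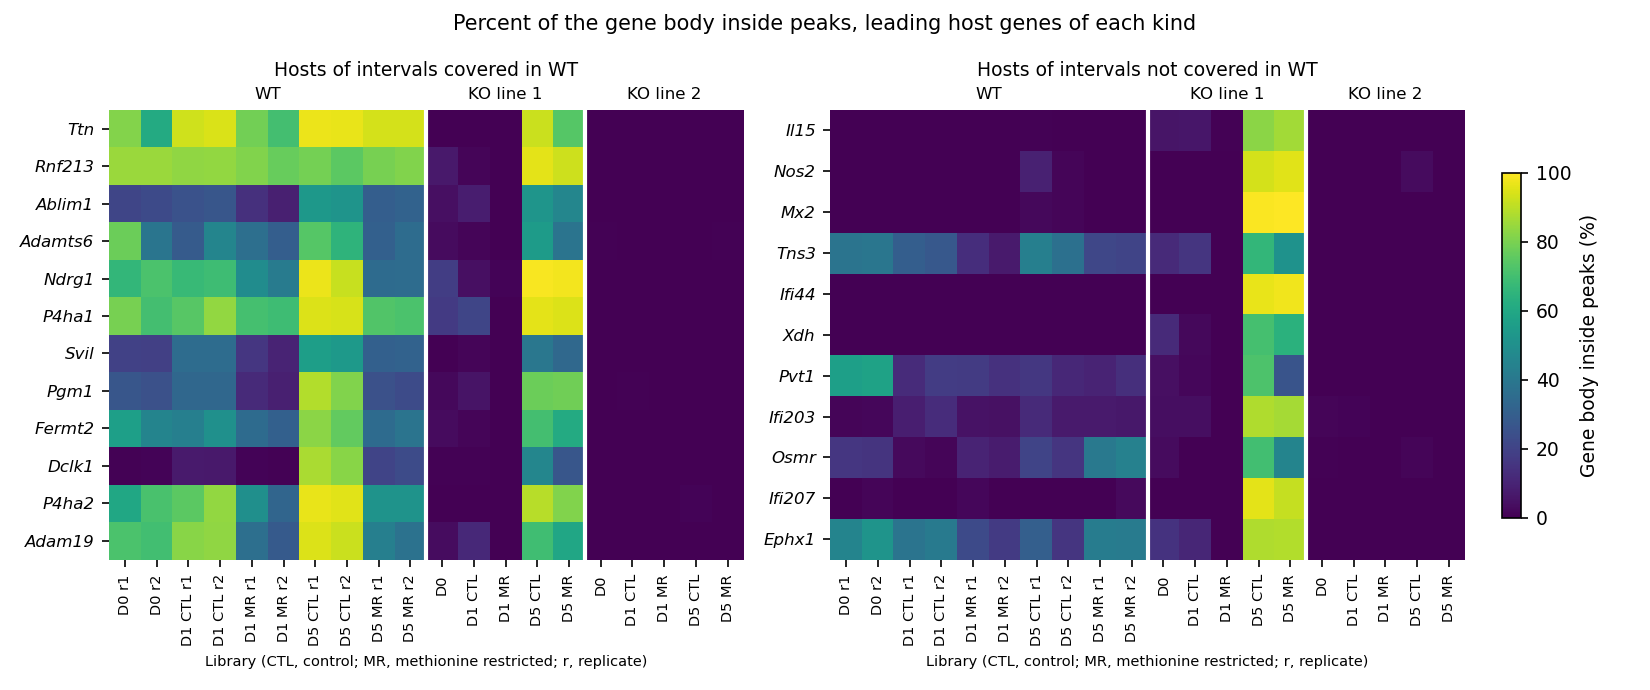
Percent of the gene body inside peaks (colour scale, 0 to 100) in the 20 libraries (columns, grouped as WT, KO line 1 and KO line 2) for leading host genes by interval bases of each kind (rows). The left panel has the hosts of covered intervals, led by Ttn. The right panel has the hosts of not covered intervals, where for Ifi44 and Xdh every WT column is at 0 and the day 5 columns of KO line 1 are high.

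Not all leading hosts of not covered intervals were interferon genes. Osmr, the receptor of oncostatin M, was at 69.7% and 45.3% in KO line 1 at day 5 after 3.11% and 0% in the day 0 and day 1 control libraries. WT had 15.98% and 14.93% on day 0, and on day 5 20.4% and 15.3% (control) and 40.5% and 44.1% (restricted). Pvt1, a long non-coding RNA gene beside Myc, was at 72.2% and 25.9% in KO line 1 at day 5. WT had 56.4% and 57.6% on day 0 and between 9.95% and 17.7% in the other 8 libraries. Ephx1, a detoxifying epoxide hydrolase, was at 88.0% and 88.5% in KO line 1 at day 5, and between 15.4% and 51.6% in WT. Tns3, a focal adhesion protein, and Masp1, a complement protease, held 12 and 8 not covered intervals, and 4 and 1 covered ones.

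Ttn, the gene of the giant spring protein titin of the sarcomere (chr2:76703980-76982557), held the most bases among the hosts of covered intervals, 184175 in 49 intervals. Its cover was 0% in the 3 earlier libraries of KO line 1, and then 92.1% (control) and 73.8% (restricted) on day 5. WT control libraries had 81.5% and 61.2% on day 0, 92.8% and 94.5% on day 1, and 96.9% and 96.6% on day 5. The restricted WT libraries had 78.8% and 70.1% on day 1. KO line 2 was at 0% in all 5 libraries. The gene was thus marked in every WT library and, among the KO libraries, in the 2 of line 1 at day 5. Rnf213, a large ubiquitin ligase, came next with 73106 bases in 15 intervals. It was at 95.8% and 92.6% in KO line 1 on day 5, after 6.90% and 1.22% in the day 0 and day 1 control libraries, and at 79.3% and 74.8% in the WT control libraries of day 5. Ablim1, an actin-binding protein, and Adamts6, a secreted metalloprotease, followed with 45407 and 33013 bases.

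Other muscle structure genes held covered intervals too. Neb, the ruler of the thin filament, was at 55.4% and 14.4% in KO line 1 on day 5, and at 95.7% and 95.1% in the WT control libraries of that day. Myom2, of the M band, was at 72.8% and 37.2% beside 84.9% and 84.5%. Des, the muscle intermediate filament, was at 49.6% and 39.6% beside 84.7% and 88.8%. In the restricted libraries of that day the order of KO line 1 and WT varied by gene. Neb had 14.4% in KO line 1 and 81.2% and 84.5% in WT, whereas Tpm1, a tropomyosin of the thin filament, had 68.1% in KO line 1 and 43.5% and 44.0% in WT. Of 47 myogenic and contractile genes 14 held a covered interval and 0 a not covered one. Over all 47 genes the median cover in KO line 1 was 0% on day 0, and 14.8% (control) and 5.76% (restricted) on day 5. In the WT control libraries of day 5 it was 82.5% and 78.6%. Cell-cycle genes held 0 intervals among 26, beside 6.24% of all genes with an interval. On day 0 their median cover was 89.0% and 85.3% in WT and 19.3% in KO line 1. In the day 5 control libraries it was 40.8% and 38.5% in WT and 2.32% in KO line 1.

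Genes that answer low oxygen and those of sugar breakdown were frequent hosts. Of 24 hypoxia-response genes, a list written down after values had been seen, 21 held an interval. Of 15 glycolysis genes, a list fixed beforehand, 10 did. Bnip3, a mitophagy receptor, was at 0% and 2.43% in the day 0 and day 1 control libraries of KO line 1 and at 99.7% and 99.3% on day 5. WT had 30.9% and 18.8% on day 0, and on day 5 85.8% and 88.9% (control) and 32.9% and 32.4% (restricted). Egln3, a prolyl hydroxylase that marks HIF for destruction, was at 0% in the 3 earlier libraries of KO line 1 and at 93.5% and 91.2% at day 5. WT had 14.1% and 9.57% on day 0, and on day 5 87.2% and 75.6% (control) and 20.8% and 23.6% (restricted). In WT the restricted libraries of day 5 were far below the control ones for both genes, whereas the pair of KO line 1 libraries were close, which the rule favours by asking for peaks in both media.

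Further hosts from these lists varied in this respect. Pdk1, the kinase that keeps pyruvate out of the mitochondrion, was at 65.9% (control) and 27.7% (restricted) in KO line 1 on day 5, and in WT at 89.5% and 88.4% (control) and 33.1% and 25.5% (restricted). Ndrg1, a stress-response gene, was at 98.8% and 98.2% in the day 5 control and restricted libraries of KO line 1. The WT libraries of day 5 had 97.0% and 91.5% (control) and 34.9% and 35.3% (restricted). Hk2, the hexokinase that commits glucose to glycolysis, was at 88.7% and 66.2% in KO line 1, and in WT at 81.7% and 78.7% and at 36.6% and 33.2%. Gapdh, the glyceraldehyde phosphate dehydrogenase, was at 81.1% and 80.3% in KO line 1, and in WT at 78.4% and 74.1% in control medium and 9.29% and 0% under restriction. Car9, an acid-handling carbonic anhydrase, held a not covered interval. It was at 68.4% and 57.1% in KO line 1 at day 5 beside 30.8% and 23.4% in WT in control medium and 0% in both WT libraries under restriction. Median cover of the 24 hypoxia-response genes was 86.7% and 71.7% in KO line 1 on day 5. In WT it was 83.6% and 76.5% (control) and 34.9% and 34.7% (restricted) on that day. The KO lists have 1 library per medium and the contrast of media in KO line 1 entered the choice, so whether lines and WT differ in their response was not tested.

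Matrix and adhesion genes were the other groups with many hosts. Of 24 extracellular matrix genes 12 held an interval and of 22 cytoskeleton and adhesion genes 12. Col6a1, a chain of collagen VI, held a not covered interval. KO line 1 had 26.9% and 78.5% in the day 0 and day 1 control libraries and 91.6% and 91.05% on day 5, and the WT control libraries of day 5 had 44.7% and 51.4%. Splicing genes held intervals in 6 of 23 cases, genes of H3K36 methylation in 4 of 20 (Setd5, Morf4l1, Supt6 and Kdm2a), of the amino acid response in 3 of 16, and of translation and of the methionine cycle in 1 of 20 and 1 of 15.

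The next comparison asked how these intervals and their genes behaved during differentiation and under restriction in WT cells, where replicates allow a test. Percent cover was compared with limma over the 10 WT libraries, with Benjamini-Hochberg adjustment within a contrast and a threshold of 0.05. Of the 3051 intervals 2254 entered the test, which needed a mean WT cover of at least 5% and some variation, so those absent from WT or always covered were not tested. The split used WT day 5 control values, so directions within a kind follow in part from it and counts are read over both kinds.

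From day 0 to day 5 in control medium, 198 of the 2254 intervals were called higher and 39 lower in WT, or 8.78% and 1.73% (10.5% together). Among all 3060 runs tested, these included, 6.96% were called higher and 1.5% lower (8.46% together). Most of these runs are the intervals themselves, and among the 806 other runs tested 1.86% were called higher and 0.87% lower. Under restriction at day 5, 883 intervals (39.2%) were called lower than in control medium and 12 higher, beside 34.6% lower and 0.425% higher (35% together) among all runs tested. Among the 806 other runs 21.8% were called lower and 0.12% higher. The other runs lay in at least 1 earlier list of KO line 1, and those in both earlier lists had 81.6% to 94.4% of their bases in WT peaks, and the part of this higher WT level in the gap was not tested.

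Single intervals moved from empty to full. An interval of Myom2 (chr8:15096542-15100506) was at 0% in both libraries of WT day 0 and at 100% in both of day 5 in control medium, a difference of 100 points (SE 7.17, limma adjusted p = 0.00049). An interval of Dclk1, a microtubule-associated kinase (chr3:55450836-55454051), moved likewise from 0% to 100% (limma adjusted p = 0.00083). An interval of Fndc1 (chr17:7758896-7762383) also differed by 100 points (limma adjusted p = 0.0080), with an adjusted p of 0.053 and 0.055 without either day 5 control library. In the other direction, an interval of Rnd1, a small GTPase (chr15:98673766-98674896), was at 100% in both libraries of day 0 and at 0% in the 4 WT libraries of day 5 (limma adjusted p = 4.4e-05). An interval of Inhba, the activin A subunit (chr13:16021899-16022961), fell from 100% and 99.7% to 0% (limma adjusted p = 4.4e-05), and the difference was -49.9 points (adjusted p = 0.58) with lists shortened to one length. Both are among the not covered intervals and inside peaks of KO line 1 on day 5 by the rule.

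Some intervals were fully in peaks of WT control libraries and in no peak of the restricted ones. The interval of Fzd7, a Wnt receptor (chr1:59483800-59488208), was at 100% in both WT libraries of day 5 in control medium and at 0% in both restricted ones (SE 5.48, limma adjusted p = 2.5e-05). So were intervals of Ndrg1 (chr15:66931271-66935246), of Ahnak, a large scaffold protein (chr19:8994987-8998706), and of Cd81, a tetraspanin (chr7:143054645-143058282), with limma adjusted p-values of 9.1e-05, 7.8e-06 and 1.2e-05. Of the 12 intervals called higher under restriction, one of Ephx1 (chr1:180996231-180997671) rose from 13.3% and 0% to 100% in both libraries, and one of Cp, the copper-carrying ceruloplasmin (chr3:19967469-19968540), rose from 0% to 89.4% and 100%. The Cp difference was 50 points and did not pass (limma adjusted p = 0.32 and 0.36) with −log10 q of at least 3 and with shortened lists.

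At the level of gene bodies, 1036 of the 1146 measured host genes entered the test. From day 0 to day 5 in control medium, 208 of these (20.1%) were called higher and 57 (5.50%) lower in WT, beside 12.4% and 15.5% (27.8% together) among all 9268 genes tested, and 11.4% and 16.7% among the 8232 that are not hosts. When each library was centred on its own median, 276 hosts were called higher and 52 lower, and 1556 and 1265 of all genes. The median difference was 2.12 points for hosts and -1.07 points for all genes. Hosts tested were longer than the other genes tested, with a median of 32.8 kb against 21.5 kb, and better covered in WT at day 5, with medians of 72.9% and 50.6%. The part of length and level in these counts was not tested.

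The 6 host genes with the largest rises among those called were Neb, Tnnt3, Rbm24, Myom2, Pdk1 and Dclk1, by 84.0 to 94.6 points. Neb rose by 94.6 points (SE 3.32, limma adjusted p = 8.7e-07) from 0.85% and 0.70% to 95.7% and 95.1%. Pdk1 rose by 84.1 points (SE 4.47, limma adjusted p = 3.7e-06) from 6.83% and 3.01% to 89.5% and 88.4%. Dclk1 rose by 84.0 points (SE 2.88, limma adjusted p = 8.4e-07) and Tnnt3, the fast skeletal troponin T, by 90.9 points (SE 4.19, limma adjusted p = 2.0e-06). Pgm1, the phosphoglucomutase of glycogen metabolism, rose by 59.1 points (SE 3.78, limma adjusted p = 1.0e-05). Ttn rose by 25.4 points (limma adjusted p = 0.011), with adjusted p = 0.065 and 0.063 without either day 5 control library and a difference of 35.6 or 15.2 points without either day 0 library. Of the 23 hypoxia-response genes tested, from the list made after values were seen, 16 were called higher and 0 lower, with a median difference of 22.1 points.

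Under restriction at day 5, 775 host genes (74.8%) were called lower in WT and 7 higher, beside 42% and 3.9% (45.9% together) of all genes tested, and 37.9% and 4.30% of those that are not hosts. The median difference was -21.6 points for hosts and -9.36 points for all genes. When each library was centred on its own median, 183 host genes were called higher and 384 lower, and 3755 and 1329 of all genes. The median differences were then -4.45 points for hosts and 7.80 points for all genes, so the split between directions depends on that scaling. Host genes called higher included Osmr, Ephx1, Cp, Itga3, Ereg and Lman1. Osmr was higher by 24.5 points (SE 2.73, limma adjusted p = 0.00020). Ephx1 was higher by 18.97 points (SE 5.25, limma adjusted p = 0.018), with adjusted p = 0.11 without replicate 2 of the day 5 control (11.5 points) and 0.080 and 0.072 without either restricted library of day 5. Leaving out 1 WT library at a time, 3 to 8 host genes were called higher.

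**Figure D4:**
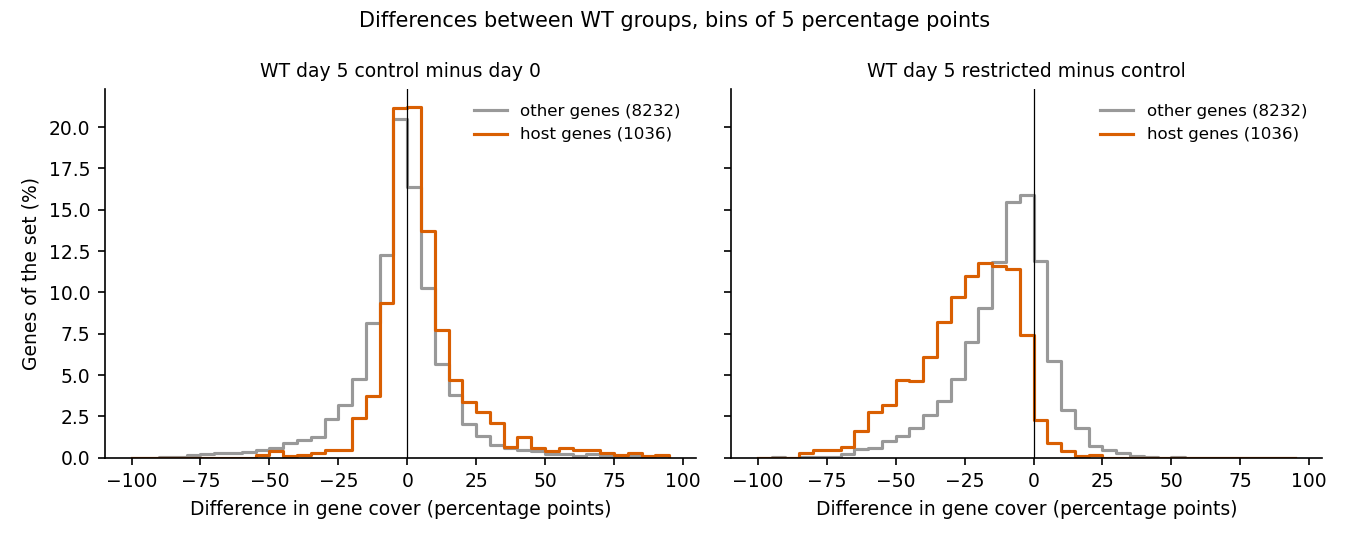
Distribution of the difference in gene cover between WT groups (horizontal axis, percentage points, bins of 5) for the 1036 host genes and the 8232 other genes tested (vertical axis, percent of the set). Left, day 5 control minus day 0; right, day 5 restricted minus control. On the right the host genes lie further below 0, with a median of -21.6 points.

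The gene groups with hosts are read against the 42% of all genes and 74.8% of host genes called lower under restriction in WT. Of 45 myogenic and contractile genes tested 43 were called lower and 0 higher (median -47.5 points), and of 15 glycolysis genes 14 and 0 (median -34.0 points). Of 21 cytoskeleton and adhesion genes 17 were lower and 0 higher (median -25.2 points), and of 22 extracellular matrix genes 16 and 3 (median -19.1 points). Of 23 hypoxia-response genes, from the list made after values were seen, 20 were lower and 0 higher (median -35.5 points). With centred libraries these 5 groups had 31, 8, 10, 7 and 17 genes called lower and 1, 1, 4, 5 and 1 higher, so for matrix genes the calls were nearly balanced. In the groups with fewer hosts, the genes called lower were 14 of 19 translation genes, 12 of 19 genes of H3K36 methylation, 8 of 13 of the amino acid response, 11 of 23 splicing genes and 2 of 13 of the methionine cycle. With centred libraries they had 1, 2, 3, 4 and 0 lower and 6, 5, 1, 8 and 8 higher. Ndrg1 fell by 59.1 points (SE 4.04, limma adjusted p = 2.0e-05), Egln3 by 59.2 points (SE 4.92, limma adjusted p = 4.9e-05) and Hk2 by 45.3 points (limma adjusted p = 4.9e-05). Ttn, at 93.5% and 93.4% under restriction, differed from control by -3.30 points (SE 5.72, limma adjusted p = 0.68).

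The rule has a length minimum. Before it was applied, 15.9 Mb appeared at day 5 in 32464 runs, of which 29413 were shorter than 1 kb, and the kept intervals hold 33.8% of these bases. Of the 726 runs within 100 bases below the minimum 71.1% were covered in WT, and of the 546 within 100 bases above it 69.96%. A further 40.4 Mb appeared in the control list of day 5 alone and 16.7 Mb in the restricted list alone.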

How the data were processed

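H3K36me3 ChIP-seq was deposited as 20 lists of broad peaks, 1 per library. The lists carry the authors' fold enrichment (a ratio), −log10 p, −log10 q and a score, which was not used. The genome build is GRCm38 per the submitters' processing notes. The caller, its control and the read filters are not given in the sources used here, the spike-in named in the labels' protocols was not applied here, and the input was not used here. The lowest −log10 q in the deposited lists was 1.00. Peaks were merged per list, and the percent of bases of each interval or gene inside peaks was computed with genes of RefSeq on GRCm38.p6 (47042 on chromosomes 1 to 19, strand for 25748).

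Host genes hold at least 50% of an interval, protein-coding first. WT libraries were compared with limma 3.58.1 in R 4.3.3 (trend and robust), where the mean WT cover reached 5%. The overlap code was run on 200 random sets and differed from a base-by-base count in 0. On simulated data, 65.0% and 64.5% of 200 changes of 80 points were recovered over 4203 intervals in the day 5 minus day 0 and the restriction contrast, and 77.5% and 70.5% of 200 changes of 30 points over 9269 genes. Named genes are the 12 hosts with most bases of each kind, the longest intervals, the largest called differences without overlap between groups, and list members that are hosts. Genes outside this rule that the text names (such as Irf1, Ifit1 and Ifit3) were chosen after their values were seen. The intervals and gene lists were chosen with earlier results of these data known. Alternatives were the length minimum, the peak threshold, joined peaks, shortened or centred WT lists, other filters, fewer libraries and each library left out. Some items that this rule names are not reported here.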

Additional observations from a re-analysis of the deposited data

Results flagged for a closer look

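In 4 cases KO line 2 moved one way and the WT libraries the other way between the same groups. Between day 0 and day 1 (control), the share of not covered bases in peaks changed by 0.75 points in KO line 2 and by -7.63 points in WT. For the not covered intervals in genes the changes were 0.32 and -9.39 points, and for those outside genes 2.33 and -1.17 points. From control to restriction at day 5 the share outside genes changed by 0.57 points in KO line 2 and by -1.70 points in WT. KO line 2 has 1 library per condition, so these differences were not tested.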

How the results depend on the processing

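With a minimum of 500 bases there were 10388 intervals, of which 68.1% were covered in WT and 87.6% had a host gene. With 2 kb there were 609, with 76.2% and 96.1%. The covered share was 80.7% when 1 base sufficed and 60.9% when 90% was required. The hosted share was 90.2% with peaks joined over gaps of 500 bases and 92.3% with a host by 1 base. With WT lists shortened to 108.3 Mb each, interval calls from day 0 to day 5 were 67 lower, and under restriction 41 higher and 494 lower. For host genes the shortened lists gave 89 lower from day 0 to day 5, and 33 higher and 488 lower of 977 under restriction, where all 8158 genes had 1250 higher and 1650 lower. Centred libraries gave 183 and 384 host genes under restriction. A fit of the 4 libraries compared gave 129 higher and 16 lower intervals, and 37 lower host genes, from day 0 to day 5.

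Leaving out 1 WT library at a time gave 131 to 233 higher and 29 to 56 lower intervals, and 134 to 219 higher and 27 to 64 lower host genes, from day 0 to day 5. Under restriction it gave 10 to 18 higher and 612 to 897 lower intervals, and 3 to 8 higher and 592 to 795 lower host genes. The lowest counts of higher intervals and genes, 131 and 134, came without replicate 1 of WT day 5 control, and the 27 lower host genes without its replicate 2. A lone library is then assumed to vary like the other groups.

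Replicate numbers did not pair the libraries: same-numbered deviations correlated at -0.44 to 0.07 over 10 group pairs. The fit with a replicate block gave 182 higher and 32 lower intervals and 198 and 52 host genes from day 0 to day 5, and 12 and 833 intervals and 7 and 751 host genes under restriction.

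Among 48 genes and intervals with a call that the naming rule takes, 706 of 761 alternatives kept it, 55 lost it and 0 turned its sign. The cause of these changes was not tested. Peak lists carry no read depth, so a base outside peaks is not shown to lack the mark, and KO values rest on 1 library each.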
